A study of Arabidopsis thaliana and Lotus japonicus with 44 samples.

Results

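The response of *cyclops-4* roots of *Lotus japonicus* to an arbuscular mycorrhizal fungus (AMF) was measured by RNA-seq. Its members are the 6 of 44 libraries of the series that the labels give as *cyc4* roots on 1/2 MS medium, 3 with AMF (*cyclops-4* +AMF) and 3 without it (*cyclops-4* −AMF). The mutation is in the Gifu ecotype, and 4 Gifu +AMF and 4 Gifu −AMF libraries served for comparison. Roots of plants aged 6 weeks were collected 48 h after pre-germinated spores of *Rhizophagus irregularis* were pipetted onto them, or after a mock inoculation with sterile water. Each library pools the roots of several seedlings from one plate, so the p-values below measure the spread between pools, and the sources do not say whether the pools were grown on different days. *cyclops-4* is a single mutant line, so an effect of CYCLOPS and of any other difference of that line from Gifu cannot be told apart.

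CYCLOPS, called IPD3 in *Medicago*, is a DNA-binding transcriptional activator of the common symbiosis pathway. Calcium oscillations in the root cell nucleus, set off by fungal or rhizobial signals, activate the kinase CCaMK, which phosphorylates CYCLOPS, and CYCLOPS then switches on genes needed to let the microbe into root cells. A *cyclops* mutant perceives the fungus but does not form a mycorrhiza, so the question of the comparison is which transcripts still respond to AMF when this activator is lost. The fungal reads had been separated by the authors and are not in these counts.

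Total counts ran from 2615924 to 2871520 in *cyclops-4* +AMF and from 2672368 to 2773121 in *cyclops-4* −AMF. Transcripts whose exons lie opposite an annotated exon of the other strand made up 12.1% of the annotation and took 76.1% of the counts of the 6 libraries. The headers show that the Lotus libraries were counted with the forward-stranded setting, whereas the 30 Arabidopsis libraries of the series were counted with the reverse setting. The study describes 1 strand-specific preparation for all libraries, and whether the forward setting is the right one for the Lotus reads was not tested. The strand of the reads could not be checked from count tables. A count of a Lotus transcript thus cannot be told apart from reads of the opposite strand, whether or not an opposite exon is annotated. In *cyclops-4* +AMF replicate 3 the transcripts with an opposite exon took 79.7% of the counts, against 75.0% to 76.7% in the 5 other libraries. The TMM factor of replicate 3 was 0.873, against 0.983 to 1.06. This library also lay apart in a principal component analysis of log2 CPM, with a PC1 score of 41.9, against −29.9 and −16.7 in the other *cyclops-4* +AMF libraries and −15.1 to 18.9 in *cyclops-4* −AMF. PC1 held 31.2% of the variance. PC2, with 23% of it, had scores of 16.9 to 24.5 in *cyclops-4* +AMF and −28.1 to −9.22 in *cyclops-4* −AMF, so that the groups did not overlap on it.

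Few transcripts passed the test in *cyclops-4*. Of the 12616 transcripts that reached 10 counts in 1 or more of the Lotus libraries, 15 differed at an adjusted p under 0.05 (edgeR quasi-likelihood test, Benjamini-Hochberg), which is 0.119% of those tested. With AMF, 11 of them (0.0872% of those tested) were higher, by log2 fold changes from 1.02 to 3.32, and 4 (0.0317%) were lower, by −2.79 to −1.72. At an unadjusted p under 0.05 there were 827 transcripts, or 6.56%, of which 451 (3.57%) were higher and 376 (2.98%) lower with AMF. The median log2 fold change over all tested transcripts was 0.01 and the median absolute one was 0.21, against 1.59 for the 15. All 15 had groups that did not overlap, which held for 1158 of the 10054 transcripts with a mean of at least 10 counts, or 11.5%, with 6.27% higher and 5.25% lower with AMF. Values per library below are TMM-normalized CPM, that is counts scaled to a common library size, given for replicates 1, 2 and 3, and fold changes are log2 values with their standard error (SE). Gene names are those of the Arabidopsis homologs that the study assigned, and transcripts without one are given by their identifiers in the Gifu v1.2 annotation.

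**Figure D1:**
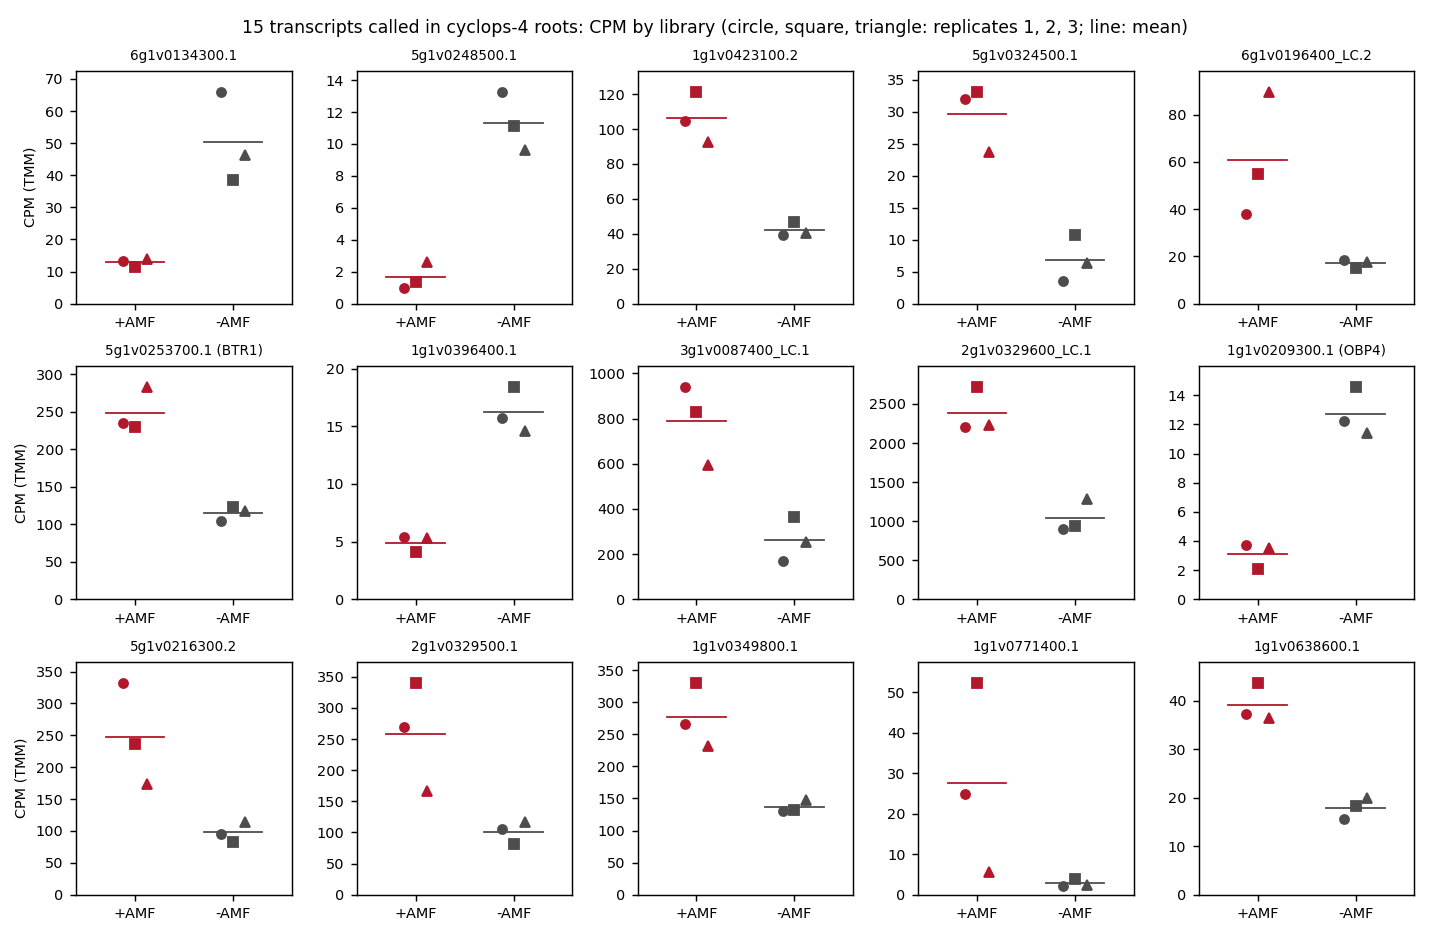
CPM of the 15 transcripts that passed the test, by library, with *cyclops-4* +AMF on the left and *cyclops-4* −AMF on the right of each panel. In each panel the 3 libraries of one group lie above the 3 of the other, and in 8 of the 11 panels with higher levels in +AMF the lowest +AMF point is replicate 3.

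The transcript that the study names as a homolog of Arabidopsis *OBP4* fell with AMF. OBP4 is, in Arabidopsis, a DOF-type transcription factor that restrains cell growth, but the Arabidopsis locus printed beside the name in the study is *FKF1* in RefSeq, a blue-light receptor of the clock and flowering pathway, so it is uncertain which gene the transcript is the homolog of. It is called the *OBP4* homolog here as in the study. LotjaGi1g1v0209300.1 (chromosome 1, 45895193 to 45896652, plus strand, 1 exon) had 3.70, 2.05 and 3.52 CPM in *cyclops-4* +AMF, against 12.2, 14.5 and 11.4 CPM in *cyclops-4* −AMF. In bulk roots, less RNA per cell and fewer cells of a type that expresses a transcript cannot be told apart, here and below. These values rest on 11, 6 and 8 counts with AMF and 35, 38 and 32 counts without it. The log2 fold change was −2.03 (SE 0.32, adjusted p = 0.0165), and every treated pool lay below every mock pool. No annotated exon lies opposite it, and the nearest transcript of the other strand lies 5285 bases away. This does not show that its reads came from its own strand, which could not be checked.

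The homolog of *BTR1* rose. BTR1 is known in Arabidopsis as an RNA-binding protein that binds the genomic RNA of tomato mosaic virus. LotjaGi5g1v0253700.1 (chromosome 5, 56257442 to 56266207, plus strand, 8 exons) had 235, 229 and 282 CPM in *cyclops-4* +AMF, against 104, 123 and 117 CPM in *cyclops-4* −AMF. The groups did not overlap, and treated replicate 3 was the highest. Its log2 fold change was 1.12 (SE 0.17, adjusted p = 0.0165), and the second annotated transcript of the gene had 0 counts in all 6 libraries. Pairs in the bases that these transcripts share were not counted, so the 0 counts do not show that the second was absent.

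The homolog of *CAD8* missed the threshold narrowly. Cinnamyl alcohol dehydrogenases reduce cinnamaldehydes to the alcohols from which lignin and related phenolics are made. LotjaGi2g1v0329400.1 (chromosome 2, 80494021 to 80496212, minus strand, 5 exons) had 257, 278 and 145 CPM in *cyclops-4* +AMF, against 89.7, 49.8 and 103 CPM in *cyclops-4* −AMF. The groups did not overlap, but the treated replicate 3 lay much nearer to the mock pools than replicates 1 and 2 did. Its log2 fold change was 1.49 (SE 0.27, adjusted p = 0.0522), and leaving out each of the 6 libraries in turn gave a call in 1 fit. The adjusted p was 0.00279 without *cyclops-4* +AMF replicate 3 and from 0.0681 to 0.283 in the 5 others.

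Next to the *CAD8* homolog lie 2 of the 15 called transcripts. LotjaGi2g1v0329500.1 (80500025 to 80502835, plus strand), 3812 bases further along, had 269, 340 and 166 CPM in *cyclops-4* +AMF, against 105, 82.3 and 117 CPM in *cyclops-4* −AMF (log2 fold change 1.35, SE 0.24, adjusted p = 0.0463). LotjaGi2g1v0329600_LC.1 (80500355 to 80515469, minus strand), a low-confidence gene model of 2 exons, had 2200, 2713 and 2235 CPM in *cyclops-4* +AMF, against 899, 939 and 1280 CPM in *cyclops-4* −AMF (log2 fold change 1.20, SE 0.19, adjusted p = 0.0165). The exons of these 2 transcripts lie opposite each other over 367 bases, which is 21.8% of the first and 28.2% of the second, so they are not separate evidence. The next transcripts along were not called: LotjaGi2g1v0329700.1 changed by 0.55 on the log2 scale (SE 0.32, adjusted p = 0.854), and LotjaGi2g1v0329300.1 and LotjaGi2g1v0329800.1 had at most 3 counts in each of the 6 libraries.

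**Figure D2:**
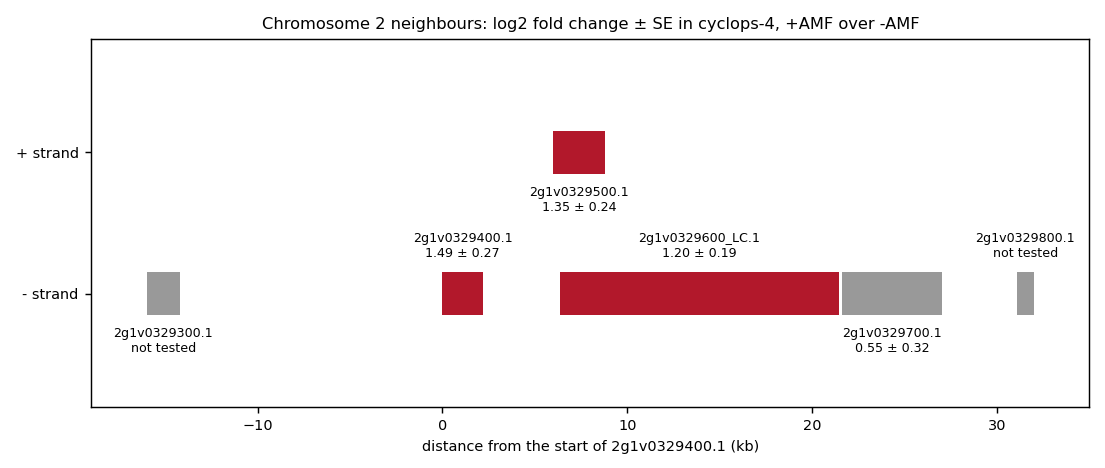
Transcripts around the *CAD8* homolog on chromosome 2, drawn to scale as distance from its start in kb, with the plus strand above and the minus strand below and the log2 fold change ± SE of *cyclops-4* +AMF over −AMF beside each. The 3 neighbours in red had values of 1.49, 1.35 and 1.20, and those in grey had 0.55 or too few counts to be tested.

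Of the other transcripts that fell, LotjaGi6g1v0134300.1 had the smallest p of the comparison. This minus-strand transcript of chromosome 6 (38758231 to 38761583) had 13.4, 11.3 and 14.1 CPM in *cyclops-4* +AMF, against 66.0, 38.7 and 46.3 CPM in *cyclops-4* −AMF (log2 fold change −1.96, SE 0.24, adjusted p = 0.00892). The 3 treated pools were close together, whereas the mock pools spread more. LotjaGi5g1v0248500.1 (chromosome 5, 55705297 to 55707371, plus strand) had 1.01, 1.37 and 2.64 CPM in *cyclops-4* +AMF, against 13.3, 11.1 and 9.62 CPM in *cyclops-4* −AMF (log2 fold change −2.79, SE 0.39, adjusted p = 0.0162). That is 3, 4 and 6 counts with AMF, so the size of the fall is imprecise, and its nearest neighbour on the other strand is only 161 bases away. LotjaGi1g1v0396400.1 (chromosome 1, 88238656 to 88248889, plus strand) had 5.38, 4.10 and 5.28 CPM in *cyclops-4* +AMF, against 15.7, 18.4 and 14.6 CPM in *cyclops-4* −AMF (log2 fold change −1.72, SE 0.27, adjusted p = 0.0165). All of its exon bases lie opposite exons of LotjaGi1g1v0396300_LC, whose transcripts had 0 counts in these libraries. Those transcripts overlap each other, and pairs that overlap several transcripts were not counted. Their 0 counts therefore do not show that the opposite strand had no reads.

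Without an opposite exon, 5 further transcripts rose. LotjaGi6g1v0196400_LC.2 (chromosome 6, 49341016 to 49346503, minus strand) had 38, 55 and 89.7 CPM in *cyclops-4* +AMF, against 18.5, 15.3 and 17.8 CPM in *cyclops-4* −AMF (log2 fold change 1.81, SE 0.28, adjusted p = 0.0165). It was the one rise apart from the *BTR1* homolog in which treated replicate 3 was the highest. LotjaGi5g1v0216300.2 (chromosome 5, 52208339 to 52230406, minus strand) had 332, 236 and 174 CPM in *cyclops-4* +AMF, against 96.0, 83.4 and 114 CPM in *cyclops-4* −AMF (log2 fold change 1.34, SE 0.23, adjusted p = 0.0320). Here the treated pools ranged widely while the mock pools were close, and the 4 other transcripts of the gene had 0 counts. Pairs that overlap several transcripts were not counted, so these 0 counts do not show that the other transcripts were absent. For LotjaGi5g1v0216300.2, only the 6824 of 12507 exon bases that no other transcript of its strand shares could be counted with certainty.

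LotjaGi1g1v0349800.1 (chromosome 1, 81980843 to 81983783, minus strand) had 267, 330 and 232 CPM in *cyclops-4* +AMF, against 130, 132 and 148 CPM in *cyclops-4* −AMF (log2 fold change 1.02, SE 0.18, adjusted p = 0.0467). LotjaGi1g1v0638600.1 (chromosome 1, 119511553 to 119517265, plus strand) had 37.3, 43.7 and 36.5 CPM in *cyclops-4* +AMF, against 15.7, 18.4 and 19.9 CPM in *cyclops-4* −AMF (log2 fold change 1.12, SE 0.20, adjusted p = 0.0492). Both were near the threshold but had well separated groups. LotjaGi1g1v0771400.1 (chromosome 1, 134417663 to 134421193, plus strand) had the largest fold change of the 15 and uneven treated pools. It had 24.9, 52.3 and 5.72 CPM in *cyclops-4* +AMF, from 74, 153 and 13 counts, against 2.09, 3.83 and 2.49 CPM in *cyclops-4* −AMF, from 6, 10 and 7 counts (log2 fold change 3.32, SE 0.60, adjusted p = 0.0492). Treated replicate 3 was close to the mock pools, and the fold change ran from 2.48 to 3.77 when each library was left out in turn.

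The last 3 rises lie opposite another annotated transcript over most of their exons. LotjaGi1g1v0423100.2 (chromosome 1, 91712580 to 91723816, plus strand, 74.1% opposite) had 105, 121 and 92.3 CPM in *cyclops-4* +AMF, against 39.4, 46.7 and 40.6 CPM in *cyclops-4* −AMF (log2 fold change 1.33, SE 0.19, adjusted p = 0.0162). Its partner LotjaGi1g1v0423200.1, annotated over the same span on the minus strand, had 122, 108 and 150 CPM in *cyclops-4* +AMF, against 118, 118 and 133 CPM in *cyclops-4* −AMF (log2 fold change 0.04, SE 0.18, adjusted p = 0.991). The groups of the partner overlapped.

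LotjaGi5g1v0324500.1 (chromosome 5, 64265051 to 64267679, minus strand, 94.4% opposite) had 31.9, 33.1 and 23.7 CPM in *cyclops-4* +AMF, against 3.49, 10.7 and 6.41 CPM in *cyclops-4* −AMF (log2 fold change 2.12, SE 0.31, adjusted p = 0.0162). Its partner LotjaGi5g1v0324600.1 had overlapping groups, with 7.06, 15.4 and 9.67 CPM in *cyclops-4* +AMF, against 12.6, 18.4 and 11.8 CPM in *cyclops-4* −AMF (log2 fold change −0.40, SE 0.30, adjusted p = 0.918). LotjaGi3g1v0087400_LC.1 (chromosome 3, 9880302 to 9885701, minus strand, 96.2% opposite) had 938, 828 and 595 CPM in *cyclops-4* +AMF, against 170, 364 and 251 CPM in *cyclops-4* −AMF (log2 fold change 1.59, SE 0.25, adjusted p = 0.0165). Its partner LotjaGi3g1v0087500.1 had 75.7, 62.5 and 47 CPM in *cyclops-4* +AMF, against 42.9, 41.0 and 36.7 CPM in *cyclops-4* −AMF, with a log2 fold change of 0.62 that did not pass the test (SE 0.21, adjusted p = 0.533).

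Transcripts with an opposite exon were 6 of the 15 called, that is 0.229% of the 2615 such transcripts tested, while the 9 others were 0.0900% of the 10001 tested without one. The mean count density was 152 counts per kb of exon for annotated transcripts with an opposite exon and 6.74 counts per kb for those without, as a mean of the 6 libraries. The medians were 0.416 and 0 counts per kb. When transcripts with an opposite exon were left out of the fit, 10 of the remaining 10001 were called, of which 7 were higher and 3 lower with AMF, and they held 8 of the 9 called transcripts without an opposite exon.

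Below the threshold, 15 further transcripts followed in order of p among those with groups that did not overlap and a mean of at least 10 counts. The *CAD8* homolog was the first of them, 9 were higher and 6 lower with AMF, their adjusted p ran from 0.0522 to 0.160, and 10 of the 15 had an opposite exon. The abundant LotjaGi1g1v0264100.1 had 6796, 7249 and 6611 CPM in *cyclops-4* +AMF, against 3291, 3939 and 3781 CPM in *cyclops-4* −AMF (log2 fold change 0.91, SE 0.17, adjusted p = 0.0669). LotjaGi3g1v0420700.1 had 3336, 3398 and 5719 CPM in *cyclops-4* +AMF, against 7142, 8162 and 10559 CPM in *cyclops-4* −AMF (log2 fold change −1.05, SE 0.23, adjusted p = 0.160), and here treated replicate 3 was the one nearest to the mock pools. LotjaGi1g1v0504200.1, with the largest fold change of these 15, had 12.8, 15.7 and 8.35 CPM in *cyclops-4* +AMF, against 1.40, 1.91 and 4.99 CPM in *cyclops-4* −AMF (log2 fold change 2.15, SE 0.41, adjusted p = 0.0702). LotjaGi6g1v0292200.1, with the most negative fold change of these 15, had 3.36, 5.47 and 18.5 CPM in *cyclops-4* +AMF, against 32.5, 38.3 and 30.6 CPM in *cyclops-4* −AMF (log2 fold change −1.96, SE 0.40, adjusted p = 0.0900).

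Partners on the other strand were measured for these transcripts too. LotjaGi1g1v0256100.1 had 19.2, 14.3 and 12.3 CPM in *cyclops-4* +AMF, against 4.54, 5.36 and 7.12 CPM in *cyclops-4* −AMF (log2 fold change 1.43, SE 0.29, adjusted p = 0.0877). Its partner LotjaGi1g1v0256000.1 had 288, 265 and 303 CPM in *cyclops-4* +AMF, against 172, 143 and 206 CPM in *cyclops-4* −AMF (log2 fold change 0.71, SE 0.18, adjusted p = 0.236). Neither passed the test. The groups did not overlap in either, but for LotjaGi1g1v0256100.1 that was a condition for naming it. LotjaGi2g1v0344600.1 differed by 0.88 on the log2 scale (SE 0.17, adjusted p = 0.0702), against 0.02 (SE 0.17, adjusted p = 0.996) for its partner LotjaGi2g1v0344500.1. LotjaGi1g1v0490700.1 and its partner LotjaGi1g1v0490600.1 had log2 fold changes of 0.81 (SE 0.17, adjusted p = 0.112) and 1.10 (SE 0.26, adjusted p = 0.178).

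The number of calls rested on single libraries. Without *cyclops-4* +AMF replicate 3, 89 transcripts were called, 48 higher and 41 lower with AMF, including all 15, and all 89 had the same direction in the fit of 6 libraries. Without replicate 2 of that group, 0 were called by edgeR (678 at an unadjusted p under 0.05), and without replicate 1, 13 were called, 11 of them among the 15. Leaving out any 1 of the *cyclops-4* −AMF libraries gave 3 calls. Of these, 1, 3 and 2 were among the 15 without replicates 1, 2 and 3. In these 6 fits each of the 15 kept its direction and had an unadjusted p of at most 0.000771. All these fits share their libraries with the fit of 6, so the same direction, for the 15 or the 89, is not separate evidence. LotjaGi6g1v0134300.1 was called in 5 of the 6 fits, LotjaGi5g1v0248500.1, LotjaGi5g1v0324500.1 and LotjaGi3g1v0087400_LC.1 in 3 each, and the other 11 in 1 or 2. The *OBP4* and *BTR1* homologs were called in 2 fits each.

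**Figure D3:**
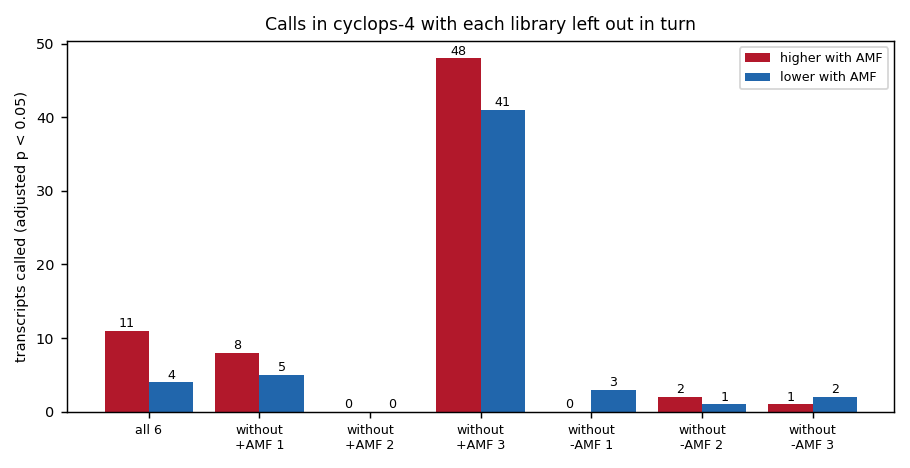
Number of transcripts called in *cyclops-4* (adjusted p under 0.05), higher (red) and lower (blue) with AMF, with all 6 libraries and with each library left out. The bars reach 48 and 41 without *cyclops-4* +AMF replicate 3 and are at 0 without *cyclops-4* +AMF replicate 2.

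In Gifu the same transcripts mostly moved the same way. In a fit of all 14 Lotus libraries, AMF changed 9 transcripts in *cyclops-4* (0.0713% of those tested) and 268 in Gifu (2.12%), from 3 and 4 libraries per group, and the numbers alone do not show that the responses differ. Of the 15 called in *cyclops-4*, 14 had the same sign in Gifu, against 55.4% of all transcripts tested, and 3 were called in Gifu: the *BTR1* homolog, at 0.95 on the log2 scale (SE 0.17, adjusted p = 0.00613), LotjaGi2g1v0329600_LC.1, at 1.21 (SE 0.31, adjusted p = 0.0396), and the *OBP4* homolog, at −1.68 (SE 0.42, adjusted p = 0.0359). Of these, LotjaGi2g1v0329600_LC.1 had 2471, 1457, 6777 and 2402 CPM in Gifu +AMF, against 1514.5, 1454, 1694 and 1020 CPM in Gifu −AMF. Its Gifu groups thus overlapped, and Gifu +AMF replicate 3 lay far above the other libraries. The *CAD8* homolog was called in Gifu too, at 1.77 (SE 0.28, adjusted p = 0.00401). In absolute size the fold change was larger in *cyclops-4* for 14 of the 15, which is a direction that choosing them in *cyclops-4* favours. None of the 15 passed the edgeR test of the difference between the genotypes, and 0 passed that of DESeq2 (6 had an unadjusted edgeR p under 0.05, as did 6.94% of all transcripts tested). Choosing the 15 in *cyclops-4* favours small p in this test as well, since the same libraries enter it.

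For the 3 homologs the difference of the AMF response, *cyclops-4* minus Gifu on the log2 scale, was small beside its error. It was −0.36 (SE 0.63, adjusted p = 0.979) for *OBP4*, 0.17 (SE 0.26, adjusted p = 0.974) for *BTR1* and −0.29 (SE 0.43, adjusted p = 0.972) for *CAD8*. These errors do not show that the responses were equal. The *OBP4* homolog was low in both genotypes, with 1.59, 1.37, 0.413 and 2.36 CPM in Gifu +AMF, against 4.96, 2.13, 4.04 and 7.14 CPM in Gifu −AMF. The *BTR1* homolog had 298, 243, 336 and 234 CPM in Gifu +AMF, against 157, 170, 130 and 121 CPM in Gifu −AMF, and there too the groups did not overlap.

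The largest difference among the 15 was that of LotjaGi1g1v0771400.1, the only one with the opposite sign in Gifu. It had 0.956, 2.39, 10.3 and 1.97 CPM in Gifu +AMF, against 6.02, 2.13, 10.6 and 5.44 CPM in Gifu −AMF (log2 fold change −0.75, SE 0.63). Its difference was 4.06 (SE 0.91, adjusted p = 0.0751). LotjaGi6g1v0134300.1 had 19.1, 28.3, 5.79 and 31.9 CPM in Gifu +AMF, against 28.7, 31.4, 28.3 and 28.5 CPM in Gifu −AMF, with a log2 fold change of −0.45 (SE 0.29) and a difference of −1.52 (SE 0.45, adjusted p = 0.253). In Gifu its groups thus overlapped, and the mock level was below that of the *cyclops-4* mock pools.

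**Figure D4:**
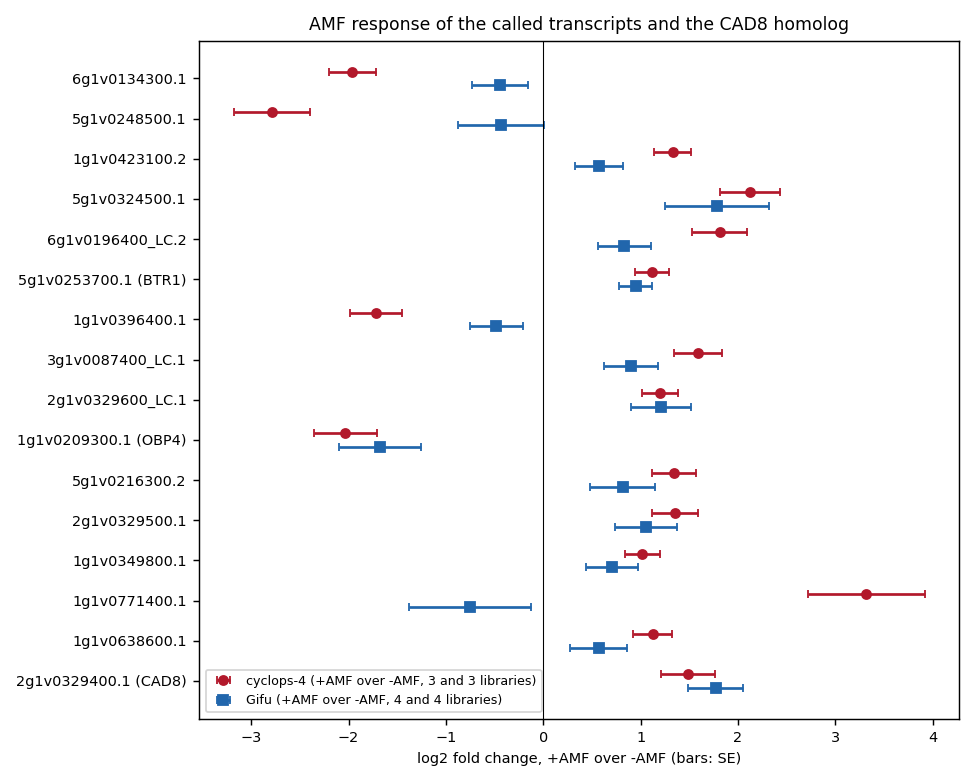
Log2 fold change of +AMF over −AMF for the 15 called transcripts and the *CAD8* homolog, in *cyclops-4* (red circles) and Gifu (blue squares), with bars for the SE. Points lie on the same side of 0 in both genotypes except for LotjaGi1g1v0771400.1, at 3.32 in *cyclops-4* and −0.75 in Gifu.

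Read from the other side, the transcripts called in Gifu behaved differently in *cyclops-4* by direction. Of the 86 that were lower with AMF in Gifu, 79 had a negative log2 fold change in *cyclops-4* too, with a median of −0.33 against −0.97 in Gifu, while 48.6% of all transcripts tested were negative in *cyclops-4*. Of the 182 that were higher in Gifu, 90 were positive in *cyclops-4*, with a median of −0.01 against 1.21 in Gifu. Without *cyclops-4* +AMF replicate 3 the counts were 78 of 86 and 119 of 182. Choosing these transcripts in Gifu favours larger medians there than in *cyclops-4*. The *cyclops-4* and Gifu libraries are separate, but the transcripts are not independent of each other.

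The test of the difference called 19 of 12616 transcripts (0.151%), all of them with a lower AMF response in *cyclops-4* than in Gifu and all among the 182. The difference ran from −2.76 to −1.44 on the log2 scale, the fold change in *cyclops-4* from −0.94 to −0.27 (adjusted p from 0.320 to 0.952) and that in Gifu from 0.96 to 2.21. None of the 19 was called in *cyclops-4* by edgeR (12 had an unadjusted p under 0.05) or by DESeq2. In 12 of them the *cyclops-4* groups overlapped, while 11.5% of transcripts with a mean of at least 10 counts had groups that did not overlap. In all 19 every *cyclops-4* −AMF library lay above every Gifu −AMF library, and the mean CPM of *cyclops-4* −AMF was 2.49 to 5.30 times that of Gifu −AMF. The share of all tested transcripts with such a separation of the mock libraries was not counted, so it is not shown to be a trait of the 19. Since the same *cyclops-4* −AMF libraries enter the difference, this level is not a separate observation. Treated replicate 3 was the lowest of its group in 18 of the 19, and without it 3 of them were called. The difference stayed negative in all 19 then, but the fold change in *cyclops-4* ran from −0.81 to 0.11, with a median of −0.37, against −0.56 with all 6 libraries.

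The 3 with the smallest p are named here after their values were seen. LotjaGi4g1v0202900_LC.1 (chromosome 4, 47004538 to 47006600) had 127, 91.6 and 60.8 CPM in *cyclops-4* +AMF, against 157, 140 and 243 CPM in *cyclops-4* −AMF. In Gifu it had 169, 73.1, 126 and 110 CPM with AMF, against 34.0, 32.4, 34.9 and 34.3 CPM without it, and the difference was −2.76 (SE 0.37, adjusted p = 0.00126). The Gifu mock pools were the lowest, and all lay below the 10 other libraries. LotjaGi4g1v0335300_LC.1 had 46.6, 36.7 and 18.2 CPM in *cyclops-4* +AMF, against 40.6, 58 and 89.5 CPM in *cyclops-4* −AMF, with a difference of −2.45 (SE 0.39, adjusted p = 0.0117). LotjaGi2g1v0423300_LC.1, whose exons lie wholly opposite another transcript, had 56.3, 40.4 and 25.6 CPM in *cyclops-4* +AMF, against 58.9, 56.1 and 72.4 CPM in *cyclops-4* −AMF, with a difference of −1.88 (SE 0.34, adjusted p = 0.0215).

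**Figure D5:**
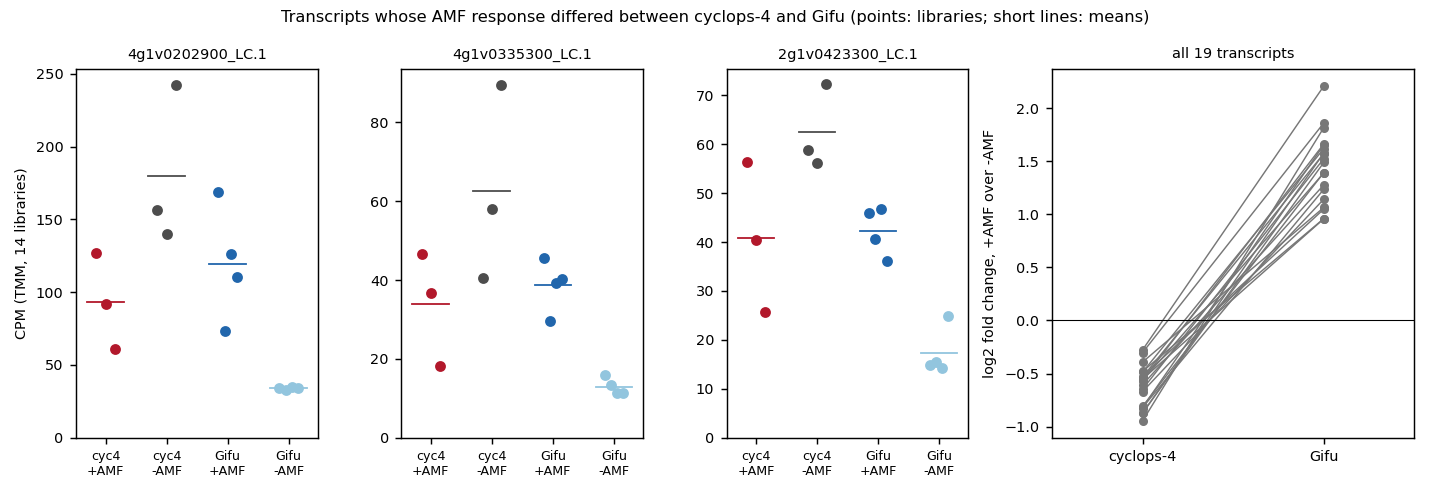
CPM by library of 3 transcripts in *cyclops-4* +AMF, *cyclops-4* −AMF, Gifu +AMF and Gifu −AMF, and, at the right, the log2 fold change of +AMF over −AMF in both genotypes for all 19 transcripts whose response differed. The fold changes lie below 0 in *cyclops-4* and between 0.96 and 2.21 in Gifu, and the Gifu −AMF libraries are the lowest.

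Transcripts that the study names for their difference between genotypes gave no call for AMF in *cyclops-4*. LotjaGi1g1v0431600.1 and LotjaGi1g1v0070100.1, homologs of a MYB/SANT factor, had 0 counts in all 3 *cyclops-4* +AMF and all 3 *cyclops-4* −AMF libraries, which allows up to 3 counts in each, so no fold change is given. In Gifu they had 23 to 75 and 3 to 11 counts. LotjaGi1g1v0155200_LC.1, a homolog of *FRS5*, of the FAR1-related family of transposase-derived proteins, had 30, 33 and 29 counts in *cyclops-4* +AMF, against 27, 26 and 28 counts in *cyclops-4* −AMF (log2 fold change 0.21, SE 0.25, adjusted p = 0.952). The other *FRS5* homolog, LotjaGi4g1v0393400.1, had 7, 10 and 9 counts in *cyclops-4* +AMF, against 6, 10 and 6 counts in *cyclops-4* −AMF. LotjaGi4g1v0167200.1, a homolog of *JASSY*, which in Arabidopsis acts in the jasmonate pathway, had 10, 17 and 10 counts in *cyclops-4* +AMF, against 19, 3 and 11 counts in *cyclops-4* −AMF. None of these 5 transcripts had an adjusted p under 0.952 for AMF in *cyclops-4*. In Gifu the *FRS5* and *JASSY* homologs had at most 2 counts, except in Gifu +AMF replicate 1, with 7, 3 and 1 counts. Without that library, 2 transcripts were called for the difference between the genotypes in place of 19. This fall was not particular to it. Leaving out Gifu −AMF replicate 1, Gifu −AMF replicate 3 or *cyclops-4* +AMF replicate 2 also left 2. Leaving out Gifu −AMF replicate 2 or *cyclops-4* −AMF replicate 3 left 1.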

How the data were processed

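The authors sequenced strand-specific, poly-A selected libraries as read pairs, separated plant from fungal reads with BBSplit and counted pairs per annotated transcript with featureCounts (version 2.0.1 per the file headers), forward-stranded, on the Gifu v1.2 annotation. HISAT2 and DESeq2 are also listed in the submitters' processing notes, with no role. The deposited values are raw counts, not normalized, in which pairs overlapping more than 1 transcript are left out.

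Of 49868 transcripts, 12616 had at least 10 counts in at least 1 of 14 Lotus libraries and were tested with edgeR 4.0.16 (quasi-likelihood, TMM, Benjamini-Hochberg, threshold 0.05) on R 4.3.3. The AMF effect in *cyclops-4* was fitted on its 6 libraries, and its difference from Gifu as the interaction of genotype and AMF in 14. CPM of *cyclops-4* were scaled over 6 libraries and those set beside Gifu over 14. Counts of 10 or less leave a large counting error. The fits were tested on simulated data with 200 changed transcripts, drawn from those with a mean of at least 10 counts. Recovery below that mean was not tested. Of 2-fold changes, 37.5% were recovered in the *cyclops-4* comparison and 8.5% in the difference from Gifu, with 3 and 2 false calls. Of 4-fold changes, 93% and 77.5% were recovered, with 11 and 7 false calls. Most 2-fold changes would thus be missed. No 2 of the 6 *cyclops-4* libraries differed by less than sampling noise (chi-square per degree of freedom from 4.58). Named are all called transcripts, those of smallest p with groups that do not overlap up to 30 in all, 8 that the study names, and their opposite-strand partners. The members and lists were chosen with earlier results of these data known. Gene lists by product name could not be applied, since no Lotus gene names were at hand, so root identity was not checked by markers, and the transcript of *CYCLOPS* is not analysed here. The alternatives were DESeq2 1.42.0, likelihood-ratio tests, no TMM, other filters, all 14 libraries, counts per gene, a replicate block, no transcripts with an opposite exon, and each library left out.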

Additional observations from a re-analysis of the deposited data

Results flagged for a closer look

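The AMF response differed between *cyclops-4* and Gifu by the interaction test in 19 transcripts, all lower in *cyclops-4*, of which LotjaGi4g1v0202900_LC.1 (difference −2.76), LotjaGi4g1v0335300_LC.1 (−2.45) and LotjaGi2g1v0423300_LC.1 (−1.88) had the smallest p. In the Gifu groups of 4, chance places about 1 group in 20 beyond Dixon's limit, and 3 of the 32 groups of the called transcripts and the *CAD8* homolog had a library beyond it. These were LotjaGi6g1v0134300.1 in Gifu −AMF replicate 2 (31.4 CPM), LotjaGi1g1v0638600.1 in Gifu −AMF replicate 2 (45.2 CPM) and LotjaGi1g1v0771400.1 in Gifu +AMF replicate 3 (10.3 CPM). In Gifu −AMF replicate 2, transcripts with an opposite exon took 81.9% of the counts, the highest share of the 14 libraries. The part of that library in these values was not tested.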

How the results depend on the processing

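The 15 calls in *cyclops-4* became 32 with DESeq2 (12 of the 15 among them), 159 and 72 with likelihood-ratio tests on common and tagwise dispersions, 158 with no filter (21994 transcripts) and 9 with all 14 libraries. They were 12 with filterByExpr, 15 with counts summed per gene and 0 to 89 with a library left out. Without TMM, 12 were called, of which 7 were higher and 5 lower, against 11 and 4. The 19 differences from Gifu became 45 with DESeq2, 149 and 78 with the likelihood-ratio tests, 1 without TMM, 160 with no filter and 44 without opposite-strand overlap, and ran from 1 to 92 with a library left out: 1 without *cyclops-4* −AMF replicate 3 or Gifu −AMF replicate 2, and 92 without *cyclops-4* +AMF replicate 1. The cause was not tested. A replicate block gave 18 calls in *cyclops-4*, 12 of them among the 15, and 16 differences. Same-numbered *cyclops-4* libraries deviated with correlations of 0.03, −0.05 and −0.22, and not every library correlated best with its own number. With 3 libraries per group, these correlations cannot decide whether the pools were paired. Over the alternatives, the 15 kept their sign in all 234 combinations of transcript and setting and lost the call in 82. Counted as lost are LotjaGi5g1v0248500.1, LotjaGi1g1v0396400.1 and the *OBP4* homolog with DESeq2, which gave them no adjusted p. Sign changes, none of them in a called transcript, were −0.0051 for LotjaGi1g1v0423200.1 and −0.028 for LotjaGi2g1v0344500.1 without TMM. With a library left out, values ran from −0.22 to 0.80 for LotjaGi4g1v0167200.1, −0.15 to 0.20 for LotjaGi1g1v0270300.1, −0.10 to 0.15 for LotjaGi1g1v0423200.1 and −0.14 to 0.11 for LotjaGi2g1v0344500.1. Falls to about 10 counts or fewer, as in the *OBP4* homolog, are imprecise at this depth.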
